A study of Mus musculus with 18 samples.

Results

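The numbered zinc finger genes of 5 mouse chromosomes, the protein-coding genes named Zfp and a number on chromosomes 4, 7, 12, 13 and 17, were compared across 3 lines of embryonic stem cells and 2 days of a differentiation course. They were picked by name, biotype and chromosome, a rule set with earlier results of these data known. Of the 54532 genes in the expression table, 195 qualified. Chromosome 4 holds 30 of them, chromosome 7 holds 89, chromosome 12 holds 4, chromosome 13 holds 31 and chromosome 17 holds 41. A further 170 numbered Zfp genes lie on other chromosomes and serve as a reference. By the annotation in the table, 182 of the 195 belong to the C2H2 zinc finger class, 1 to the ZBTB class, and 12 carry no transcription factor family, Zfp36, Zfp277, Zfp462 and Zfp346 among them. A match to the linker that joins neighbouring C2H2 fingers (a degenerate match to its coding bases, searched on the coding strand of GENCODE vM21 transcripts) was present in 158 of the 195, with a median of 5 matches and up to 18 in Zfp808, and in 2.47% of 21830 protein-coding genes. The name is therefore a family label for most of them and not for all.

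The cells were ES-E14TG2a, a line derived from mouse blastocysts, and RNA was taken from the lines called Ctrlv2, Arf-B and Arf-C. Day 0 cells were undifferentiated, and day 8 cells had received activin A (20 ng/mL) on Matrigel from day 0 and retinoic acid (labelled 5 μM/ml) with FGF10 (10 ng/mL) from day 4, a course directed at posterior foregut endoderm. Each of the 6 groups has 3 libraries of polyadenylated RNA, 18 in all. The genotype label reads wild type for all 3 lines; the title names p19Arf, and the sources used here do not say how Arf-B and Arf-C were derived, or from how many clones. Nothing states that the replicates are separate cultures, so p-values measure the spread between these libraries, which may be technical.

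Most numbered Zfp genes encode KRAB zinc finger proteins. Their tandem C2H2 fingers read DNA, often within transposable elements, and their KRAB domain recruits the co-repressor TRIM28 (KAP1), which brings SETDB1, HP1 proteins and DNA methylation. The genes multiply by local duplication, so that they lie in tandem clusters of young, similar copies. Embryonic stem cells and early embryos rely on this system to keep endogenous retroviruses silent, and a few members have known single targets, such as imprinting control regions for Zfp57 and a placental promoter of Igf2 for Zfp568.

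Clusters were defined as 3 or more members whose starts lie within 500 kb of the next. This gave 14 clusters with 151 of the 195 genes: 1 on chromosome 4, 9 on chromosome 7, none on chromosome 12, and 2 each on chromosomes 13 and 17. The chromosome 4 cluster (chr4:145510759-147848366, mm10) has 18 members over 2.34 Mb, and the largest cluster of chromosome 17 (chr17:21008903-23599487) has 23 over 2.59 Mb. The promoters of these 2 clusters are shown because their genes moved together in the comparisons that follow. They are RefSeq sequences on GRCm38.p6, 250 bases before to 50 after the annotated start, and 148 of the 195 genes have an entry within 500 bases of the gene's 5′ end.

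In the chromosome 4 cluster, 9 of the 10 genes with an entry carry the same 14 bases, in capitals, between 153 and 105 bases before the start. The windows lie at chr4:145670527-145670626 and chr4:147305461-147305560 on the plus strand and at chr4:147702667-147702766 and chr4:147809872-147809971 on the minus strand.
Zfp980: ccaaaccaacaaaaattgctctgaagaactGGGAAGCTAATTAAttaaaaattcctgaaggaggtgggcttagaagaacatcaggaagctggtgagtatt
Zfp988: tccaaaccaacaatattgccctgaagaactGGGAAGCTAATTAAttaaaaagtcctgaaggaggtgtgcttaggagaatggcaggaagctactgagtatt
Zfp534: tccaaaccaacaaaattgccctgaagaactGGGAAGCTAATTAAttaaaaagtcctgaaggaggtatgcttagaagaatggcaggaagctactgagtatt
Zfp984: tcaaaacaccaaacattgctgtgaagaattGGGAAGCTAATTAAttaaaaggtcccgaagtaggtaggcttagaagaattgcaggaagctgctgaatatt
Between the 36 pairs of such 100-base windows, 82 to 99 bases were identical, with a median of 86.5. The word was picked after the promoters had been compared. Of the promoters of all 26858 other genes, those of Gm13212 and Rex2 hold it, and both of these genes lie inside the cluster. The exception among the 10 genes with an entry is Zfp933 at the distal end of the cluster, whose promoter (chr4:147848369-147848668, minus strand) lacks the word. The other cluster members have no entry and were not searched.
Zfp933: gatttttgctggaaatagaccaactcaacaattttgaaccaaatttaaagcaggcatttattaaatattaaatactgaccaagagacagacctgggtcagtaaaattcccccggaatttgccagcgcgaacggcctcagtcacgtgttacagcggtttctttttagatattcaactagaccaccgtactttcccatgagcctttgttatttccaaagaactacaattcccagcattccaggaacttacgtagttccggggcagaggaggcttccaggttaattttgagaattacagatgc

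In the chromosome 17 cluster the shared feature is different. An E box joined by 1 base to an ETS core (CACGTG, any base, CCGGAA, both strands, in capitals) was present in 5 of 20 cluster promoters (25%), in 5 of the 148 and in 13 of all 27025 promoters (0.0481%). It was also searched for after the promoters had been seen. Zfp942 and Zfp943 share 1 such site between divergent starts, as do Zfp944 and Zfp758, so the 5 promoters hold 3 sites. The windows are chr17:21962479-21962538 and chr17:22361390-22361449 on the minus strand and chr17:22424172-22424231 on the plus strand.
Zfp942 and Zfp943: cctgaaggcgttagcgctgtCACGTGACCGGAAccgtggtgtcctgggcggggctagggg
Zfp944 and Zfp758: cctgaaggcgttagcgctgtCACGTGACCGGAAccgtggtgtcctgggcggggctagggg
Zfp946: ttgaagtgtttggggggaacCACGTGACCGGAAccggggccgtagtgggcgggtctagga
The ETS core alone (CCGGAA) was in 15 of the 20 promoters of this cluster (75.0%), in 1 of 10 of the chromosome 4 cluster (10.0%), in 35.8% of the 148 and in 15.2% of all promoters. Among chromosome 7 clusters it ranged from 0 of 4 (7.1-7.2 Mb) to 5 of 8 (62.5%, 24.1-25.2 Mb). CCAAT was in 9 of the 10 promoters of the chromosome 4 cluster (90.0%), in 74 of the 148 and in 37.9% of all. It was also in 10 of 10 promoters of the chromosome 17 cluster at 32.8-33.6 Mb. Among chromosome 7 clusters it ranged from 0 of 5 (6.1-6.4 Mb) to 4 of 4 (7.1-7.2 Mb). On chromosome 7 another word recurred, CTGGGAANTGTAGT, in 16 of 71 promoters (22.5%) against 0.574% of all and 0 of 36 on chromosome 17. It was also in 2 of 21 promoters on chromosome 13 (9.52%) and in 1 of 17 on chromosome 4 (5.88%). The word joins the most frequent words of the chromosome 7 clusters at 24.1-25.2 Mb and 29.8-30.2 Mb. Its excess on chromosome 7 was thus partly built in by that choice. These matches describe the windows and show no binding.

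Expression is given in FPKM, fragments per kilobase of gene, a unit already divided by gene length and scaled per library. The library size implied by the values was not the sum of reads on genes. It was 29222919 for 30267844 reads in Ctrlv2 day 0 replicate 1, and 24250002 for 22222425 in Arf-B day 8 replicate 1. Median-ratio factors computed on the values were 0.9963 to 1.005. Members with at least 0.5 FPKM in 3 or more libraries were tested, which kept 184 of 195 (29, 84, 4, 26 and 41 on chromosomes 4, 7, 12, 13 and 17) among 17200 genes. The other 11 were Zfp683 on chromosome 4, Zfp784, Zfp541, Zfp112, Zfp114 and Zfp82 on chromosome 7, and Zfp935, Zfp708, Zfp458, Zfp429 and Zfp366 on chromosome 13. Their highest value in any library was 0.639 FPKM. Differences are on the log2(FPKM + 1) scale, which understates changes of low genes, and a gene is called at an adjusted p below 0.05 over all genes tested. Bulk RNA cannot tell apart fewer cells of a type from less RNA per cell.

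Library depth, composition and markers bear on what follows. Reads on genes ranged from 10432590 to 33311220, and the 3 Ctrlv2 day 8 libraries had 10432590 to 14709983. Naive pluripotency markers summed to 1310 to 1360 FPKM in Ctrlv2, 1260 to 1450 in Arf-B and 1550 to 1630 in Arf-C at day 0, and at day 8 to 38.6 to 49.2 in Ctrlv2, 124 to 190 in Arf-B and 105 to 206 in Arf-C. Of 7 tested, 6 were higher in each Arf line than in Ctrlv2 at day 8, and Dppa3 was at 0 in Ctrlv2. Primitive and parietal endoderm markers summed to 128 to 148 in Ctrlv2 and 46.5 to 56.3 in the Arf lines at day 0, and to 383 to 500 and 115 to 129 at day 8, with 8 of 8 lower in each Arf line at day 8. Mesenchyme markers were 14.8 to 16.7 against 1.88 to 2.99 at day 0, and 17 to 25.2 against 4.47 to 5.68 at day 8. At day 0 Dcn was at 0 in all 3 lines, and Col3a1 and Acta2 were at 0 in both Arf lines. Of 4 mesenchyme markers tested, 1 was called lower in each Arf line at day 0. At day 8, 3 were lower and 1 was higher in each. Over the 9 day 8 libraries, definitive endoderm markers summed to 5.92 to 8.36 FPKM (1.35 to 2.31 at day 0). Posterior foregut markers summed to 5.29 to 7.38 (0.718 to 2.29 at day 0) and 2-cell-like markers to 12.3 to 32.1 (0.0625 to 0.902). Neural markers were lower at day 8, at 7.74 to 10.9, than the 18.9 to 23.3 of day 0. The part of these marker differences in the results below was not tested.

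The 3 Ctrlv2 day 0 libraries differed in the members themselves. Of the 184 tested, 119 (64.7%) were lowest in replicate 1 and 119 (64.7%) highest in replicate 2, against 32.9% and 32.4% of all genes tested. Each gene's deviation from its group mean followed the GC content of its transcript in these libraries (Spearman rho 0.40 in replicate 1 and -0.39 in replicate 2, across 17180 genes that share each library). In the other 16 libraries rho lay between -0.19 and 0.22. The members are AT-rich: median transcript GC was 42.5%, against 49.9% for all genes tested, with 38.6% on chromosome 4, 48.4% on chromosome 7, 42.7% on chromosome 12, 39.1% on chromosome 13 and 39.5% on chromosome 17. An alternative chosen after the data had been seen removed a GC trend from every library. Its day 0 values are given for chromosomes 4, 7, 13 and 17 and for the main clusters. For a named gene they are given where they end a call or differ by over 1.5 times from a called value. Uncalled values may move further without being listed.

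At day 0, numbered zinc finger genes were higher in both Arf lines than in Ctrlv2, by medians most of all on chromosome 4, followed by chromosome 17. The order of chromosomes 7 and 13 turned with the GC trend removed, as given below. In Arf-B, 88 of 184 were higher (47.8%) and 5 lower (2.72%), where 19.1% of all genes tested were higher and 20.0% lower. In Arf-C, 87 were higher (47.3%) and 11 lower (5.98%), against backgrounds of 21.2% and 21.5%. The median differences were 0.25 and 0.24. Both comparisons use the same 3 Ctrlv2 libraries. Of 156 tested Zfp genes on other chromosomes, 54 were higher and 18 lower in Arf-B (median 0.13), and 59 and 17 in Arf-C (0.17).

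The chromosomes separated as follows, without a test between them. On chromosome 4, 21 of 29 members were higher and 0 lower in Arf-B (median 0.77), and 20 and 0 in Arf-C (0.77). Chromosome 17 had 27 of 41 higher and 2 lower in each line, with a median of 0.52 in both. Chromosome 13 had 0 of 26 lower in both, with 12 higher in Arf-B (0.29) and 13 in Arf-C (0.34). Chromosome 7 had 27 of 84 higher and 2 lower in Arf-B (0.09), and 25 higher and 8 lower in Arf-C (0.13). On chromosome 12, with 4 members, 1 was higher and 1 lower in Arf-B (median -0.00), 2 and 1 in Arf-C (0.03). The other protein-coding genes of the same chromosomes had medians from -0.03 to 0.08.

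**Figure D1:**
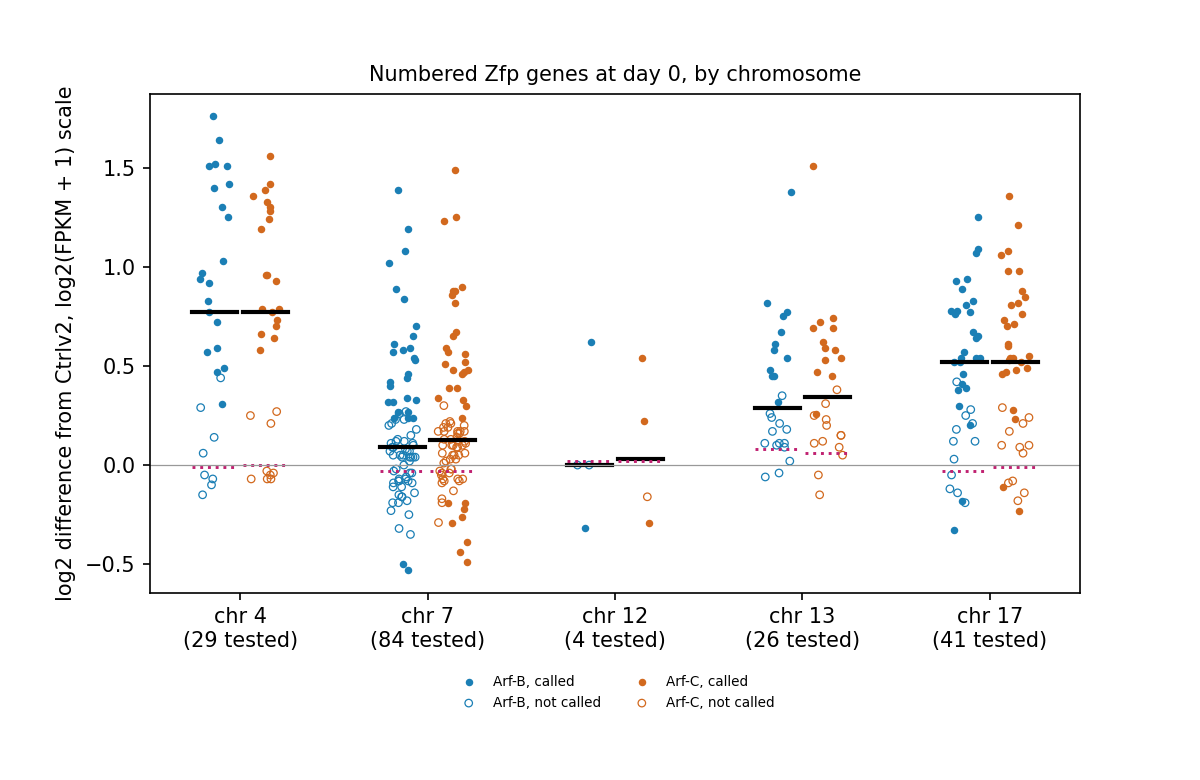
Day 0 difference of each Arf line from Ctrlv2 (log2 scale, vertical) for every tested member by chromosome (horizontal). Filled points passed the test and open points did not, the black bar is the median of the members and the dotted magenta bar that of the other protein-coding genes of the chromosome. Medians are 0.77 on chromosome 4 and 0.52 on chromosome 17 in both lines.

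GC content moves with this result. Across 17180 genes the day 0 difference fell with GC (rho -0.28 in Arf-B, -0.27 in Arf-C). When all genes were split into 5 equal groups by GC, 100 members fell into the group of lowest GC (18.1% to 43.9%). Of these, 73 were higher in Arf-B (73.0%, median 0.58), against 37.0% of the 3336 other genes in that group (0.18). In Arf-C the shares were 74.0% (0.59) and 39.1% (0.20). Inside this group the Arf-B medians were 1.00 for 20 members of chromosome 4, 0.54 for 23 of chromosome 7, 0.40 for 22 of chromosome 13 and 0.54 for 33 of chromosome 17; those in Arf-C were 0.96, 0.56, 0.46 and 0.55. Inside this group members of chromosomes 7 and 17 thus had like medians, and those of chromosome 4 stood higher. GC was not matched within the group. Of the 20 members of chromosome 4 in it, 18 belong to the cluster, whose median GC was 36.1%. It was 38.5% in the large chromosome 17 cluster. The other groups are numbered 2 to 5 by rising GC. In group 2, 34.6% of 26 members were higher in Arf-B, against 19.9% of other genes. In groups 3, 4 and 5 the shares were 15.0%, 5.56% and 10.0%, against 14.5%, 11.2% and 11.6%. In Arf-C they were 30.8% against 22.4% in group 2, then 10.0%, 5.56% and 10.0% against 16.3%, 13.7% and 13.6%. In groups 3 to 5 the members' share was thus near or under that of other genes. With the GC trend removed, 73 members were higher and 8 lower in Arf-B (39.7% higher, all genes 18.9%), and 71 and 10 in Arf-C. The medians then were 0.50 and 0.49 on chromosome 4, 0.25 and 0.24 on chromosome 17, 0.08 and 0.12 on chromosome 13, and 0.11 and 0.15 on chromosome 7.

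In genome order, the higher genes at day 0 formed runs in some clusters and not in others. Higher genes also lay outside clusters, Zfp362 on chromosome 4 among them. Not every cluster is listed here. The chromosome 4 cluster had 16 of 18 higher and 0 lower in each line (medians 1.14 and 1.08). The large chromosome 17 cluster had 17 of 23 higher and 0 lower in each (0.64 and 0.61), and the second one (chr17:32771236-33631779) had 6 of 11 higher in each, with 0 and 1 lower. On chromosome 7 the cluster at chr7:42473386-43618285 had 7 of 9 higher in each line (0.58 and 0.56), and that at chr7:27731389-28380253 had 4 of 6 (0.43 and 0.48). By contrast, the chromosome 7 cluster at chr7:24081924-25227507 had 0 of 12 higher in limma's test in either line, with 0 and 1 lower, and 0 and 2 at an unadjusted p below 0.05. Voom on recovered reads called 0 and 1 of them higher. The cluster at chr7:127233061-127885996 had 1 of 10 higher in each line and 1 and 3 lower. Median GC was 36.1% in the chromosome 4 cluster, 38.5% in the large chromosome 17 cluster and 40.3% in the cluster at chr7:42473386-43618285, but 50.6% and 53.3% in the last 2 clusters of chromosome 7 named here. With the GC trend removed, 13 and 11 of the 18 on chromosome 4 were higher (0.80 and 0.73), 13 and 12 of the 23 on chromosome 17 (0.36 and 0.37, with 1 lower in Arf-C), and 6 and 7 of the 9 on chromosome 7 (0.44 and 0.37). In the second chromosome 17 cluster the counts then fell to 4 and 3 of 11 higher, with 0 and 1 lower (0.17 and 0.09). The cluster at chr7:27731389-28380253 had 4 of 6 higher in each (0.33 and 0.31), with 1 lower in Arf-C. That at chr7:24081924-25227507 had 0 and 1 of 12 higher and 0 and 2 lower, and that at chr7:127233061-127885996 had 1 and 2 of 10 higher and 1 and 0 lower.

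**Figure D2:**
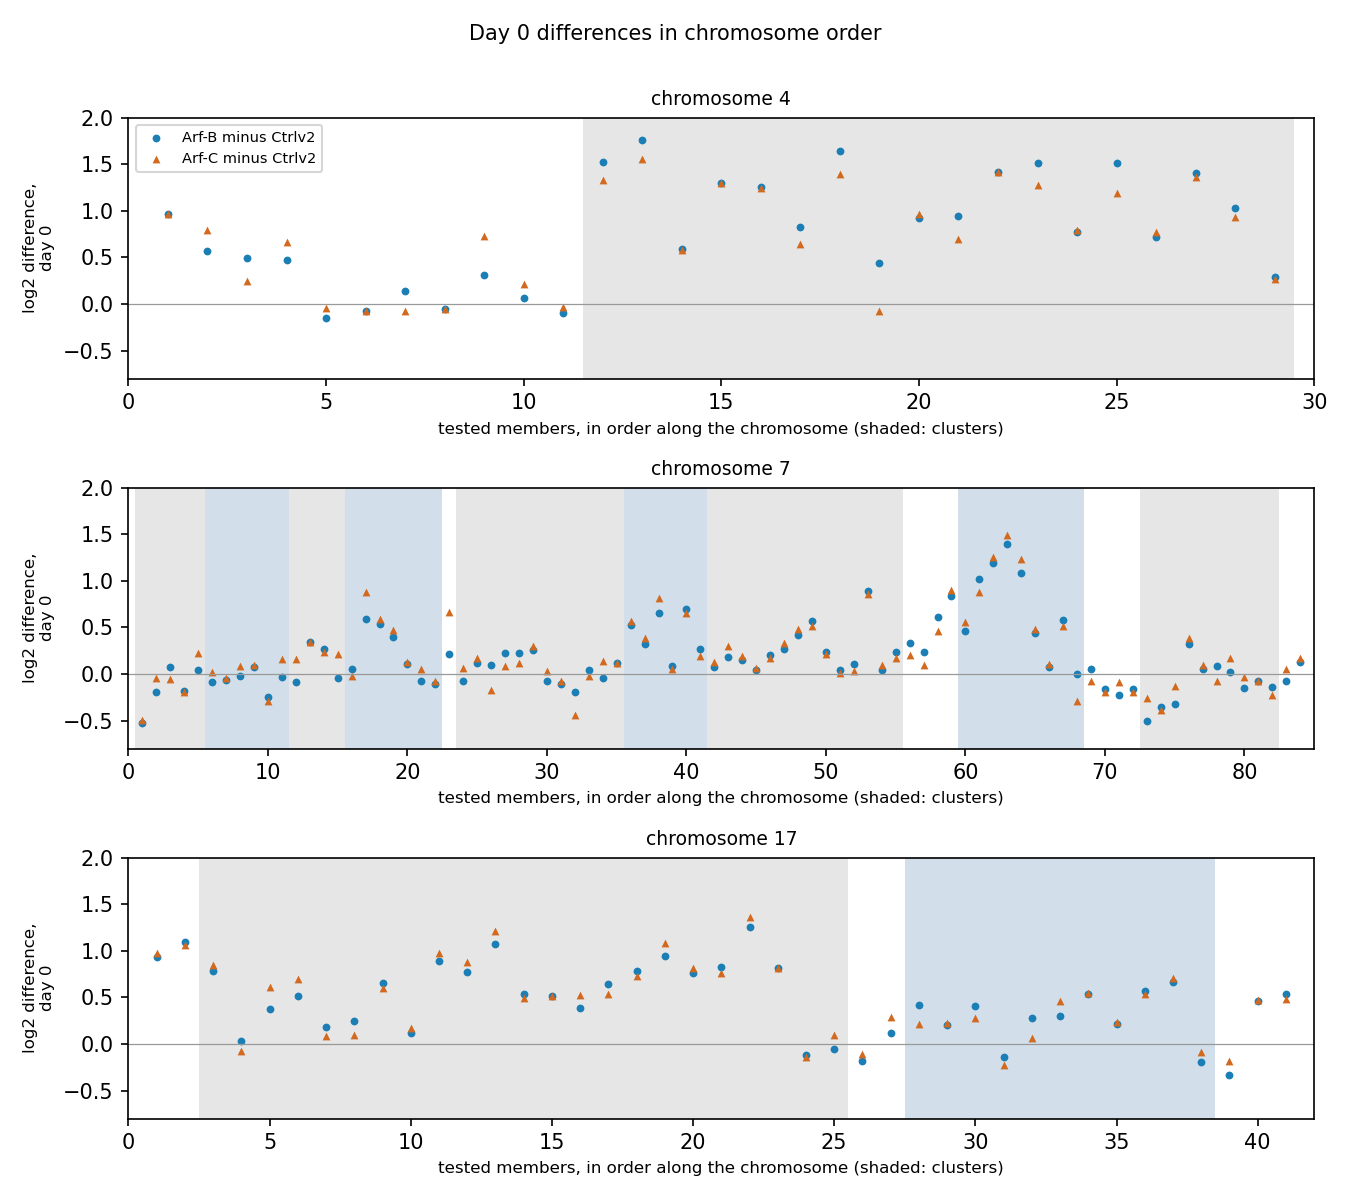
Day 0 difference from Ctrlv2 (log2 scale, vertical) of members in genome order along each chromosome (horizontal, rank). Circles are Arf-B, triangles Arf-C and shading marks clusters; in the chromosome 4 cluster 16 of 18 genes were higher in each line.

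Summed over the 18 genes of the chromosome 4 cluster, the Ctrlv2 day 0 libraries held 99.8, 275 and 167 FPKM. The Arf-B libraries held 387, 476 and 419, and the Arf-C libraries 394, 356 and 411. All 6 Arf libraries were above all 3 controls, and the 3 controls spread more widely than either Arf line. At day 8 the sums were 121, 132 and 127 in Ctrlv2, 93.5, 105 and 133 in Arf-B, with 84.0, 110 and 128 in Arf-C, where the lines overlapped. Leaving out Ctrlv2 day 0 replicate 1, the lowest, gave 14 higher in Arf-B (median 0.82) and 13 in Arf-C (0.77). Without replicate 2, the highest, there were 17 in each (1.45 and 1.39), and without replicate 3 there were 14 and 15 (1.16 and 1.10).

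Zfp990 (chr4:145510759-145539188, plus strand), the most abundant member of chromosome 4, opens the cluster. It measured 14, 41.5 and 24.6 FPKM in Ctrlv2 at day 0, 64.1, 85.0 and 67.5 in Arf-B, with 64.6, 58.3 and 65.3 in Arf-C. The Arf libraries lay above the controls without overlap, by 1.52 ± 0.261 (SE) in Arf-B (adjusted p = 0.000309) and 1.33 in Arf-C (adjusted p = 0.000815), or 2.7-fold and 2.35-fold of mean FPKM.

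The largest day 0 difference called in both lines, ranked by the smaller one, was that of Zfp980 (chr4:145670685-145704441), whose promoter window is printed above. Its controls at day 0 were 4.52, 14.6 and 8.45 FPKM, against 29.0, 33.1 and 30.2 in Arf-B, with 26.8, 24.5 and 28.4 in Arf-C. The differences were 1.76 ± 0.262 (adjusted p = 8.42e-05, 3.35-fold) and 1.56 ± 0.262 (adjusted p = 0.000222, 2.89-fold), and 1.42 and 1.20 with the GC trend removed. All 6 Arf values were above the highest control.

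Zfp988, which shares that promoter word, had 6.66, 20.1 and 13.6 FPKM in Ctrlv2, 31.1, 38.9 and 34.4 in Arf-B, with 34.0, 32.6 and 37.7 in Arf-C. It was higher by 1.42 ± 0.282 in Arf-B (adjusted p = 0.000993) and by 1.42 in Arf-C (adjusted p = 0.000856). Zfp981 was higher by 1.64 and 1.39, Zfp987 by 1.3 in each line, Zfp985 by 1.51 and 1.19, Zfp534 by 1.4 and 1.36, Zfp984 by 1.03 and 0.93 (0.57 in Arf-C with the GC trend removed), and Zfp600 by 1.25 and 1.24. Zfp992 was higher by 0.83 ± 0.15 (adjusted p = 0.000404) and 0.64 (adjusted p = 0.00289). It measured 0.50 in Arf-B with the GC trend removed, and 0.29 in Arf-C, no longer called (adjusted p = 0.0592).

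**Figure D3:**
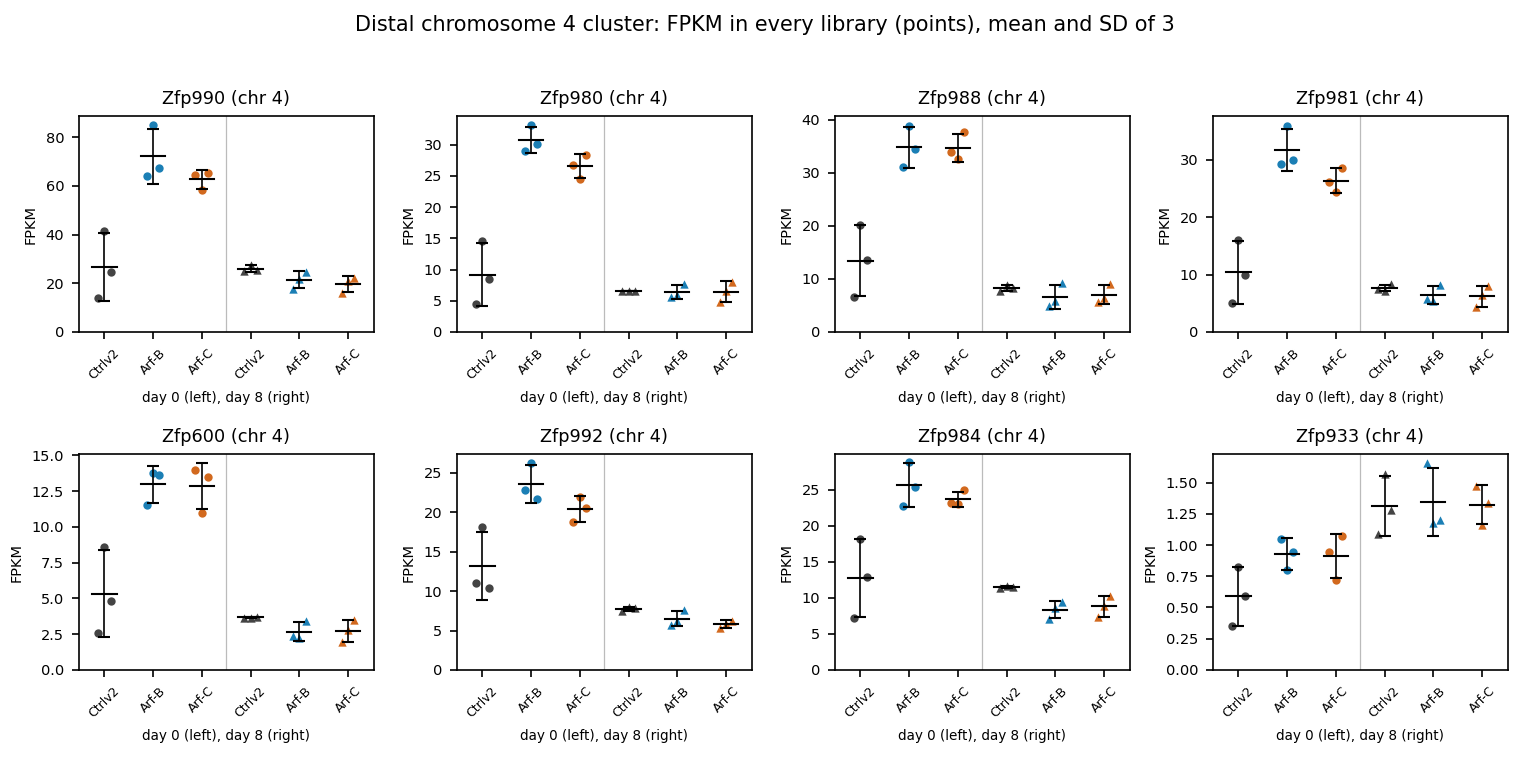
FPKM (vertical) of 8 genes of the chromosome 4 cluster in each library, by line (horizontal), with group mean and SD. Circles are day 0 and triangles day 8; in 7 of the panels the day 0 Arf libraries stand above the controls, and Zfp933 is the exception.

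Many of these genes are near copies, so their reads could be shared. In GENCODE vM21 transcripts, 71.9% of 100-base windows of Zfp993 occur in another gene, as do 70.8% for Zfp987, 67.7% for Zfp600, 45.6% for Zfp980 and 44.6% for Zfp988, and the sources used here do not say how such reads were counted; values of single copies are uncertain to that extent. Zfp990 (3.6%), Zfp985 (1.7%) and Zfp982 (3.1%) share few windows and were higher in both lines, but Zfp933 (0.0%) was called in neither. For Zfp990 and Zfp985 the calls held with the GC trend removed, but Zfp982, higher by 0.77 and 0.79, was then called in neither line (0.49 in each, adjusted p = 0.111 and 0.1). In the large chromosome 17 cluster no gene shares more than 5.4%. In the chromosome 4 cluster 2 members were called in neither line. Zfp993 measured 0.44 (adjusted p = 0.118) and -0.07 (adjusted p = 0.828), or 0.17 and -0.36 with the GC trend removed. Zfp933 measured 0.29 (adjusted p = 0.0685) and 0.27 (adjusted p = 0.0792), or 0.06 and 0.03 with the GC trend removed. It lacks the promoter word, which was searched in only 10 of the cluster's genes. No relation between the word and the calls was tested. Rex2 and Gm13212, C2H2 genes without a number in the cluster, had median differences of 1.03 and 0.94, with 1 of the 2 called in each line.

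On chromosome 17, Zfp758 (chr17:22361453-22377281) and Zfp820 (chr17:21816885-21845772) were higher at day 0 in both lines. Zfp820 measured 0.782, 1.99 and 1.41 FPKM in Ctrlv2, 3.73, 4.52 and 3.55 in Arf-B, with 4.95, 3.4 and 5.1 in Arf-C. It was higher by 1.07 (adjusted p = 0.000189) and 1.21 (adjusted p = 5.36e-05), with no overlap. Zfp758 had 0.23, 0.466 and 0.417 FPKM in Ctrlv2, against 1.23, 1.34 and 1.35 in Arf-B, with 1.61, 1.04 and 1.63 in Arf-C (0.76 and 0.82, adjusted p = 0.000441 and 0.000204). All 6 Arf values were above the highest control, and with the GC trend removed the differences were 0.40 and 0.44 (adjusted p = 0.019 and 0.00976). Its neighbour Zfp942 was higher by 0.52 in each line (adjusted p = 0.0139 and 0.0135), but not called with the GC trend removed (0.20 and 0.18, adjusted p = 0.144 and 0.18).

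Summed over the chromosome 17 cluster, Ctrlv2 day 0 held 40.0, 74.6 and 55.1 FPKM, Arf-B 90.5, 103 and 91.9, and Arf-C 104, 90.3 and 107. All Arf libraries were above the controls, again with the lowest control in replicate 1 and the highest in replicate 2. Without replicate 1, 13 genes were higher in each line (medians 0.41 and 0.54); the model fitted on the compared groups alone called 9 in Arf-B, with 14 in Arf-C.

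Single genes of chromosomes 7 and 13 moved as far as those of chromosome 4. Zfp975 (chr7:42660105-42692742, minus strand) measured 1.07, 3.45 and 2.07 FPKM in Ctrlv2, 7.03, 7.43 and 6.5 in Arf-B, with 8.29, 6.25 and 8.28 in Arf-C. It was higher by 1.39 ± 0.188 (adjusted p = 3.11e-05) and 1.49 (adjusted p = 1.42e-05). Zfp808 (chr13:62129886-62236144), the gene with the most linker matches, went from 2.57, 6.87 and 3.75 FPKM to 13, 13 and 11.1 in Arf-B, with 14.6, 11.6 and 14.5 in Arf-C. Its differences were 1.38 ± 0.224 (adjusted p = 0.000175, 2.81-fold) and 1.51 (adjusted p = 7.18e-05, 3.09-fold). Both genes separated the lines without overlap.

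Zfp260 on chromosome 7 was higher by 0.89 and 0.86 (adjusted p = 2.66e-05 and 3.4e-05), and Zfp386 on chromosome 12 by 0.62 and 0.54 (adjusted p = 0.000892 and 0.00234). Zfp386 measured 0.40 and 0.31 (adjusted p = 0.00504 and 0.0236) with the GC trend removed. Zfp459 on chromosome 13 was higher by 0.67 (adjusted p = 0.00504) and 0.54 (adjusted p = 0.0165); in Arf-C the call was lost with the GC trend removed (0.33, adjusted p = 0.0862) and without Ctrlv2 day 0 replicate 1 (0.33, adjusted p = 0.0983). Zfp462, which encodes a heterochromatin-associated protein, was higher in Arf-B by 0.49 (adjusted p = 0.00257) and measured 0.25 in Arf-C (adjusted p = 0.0891). Zfp296, a partner of pluripotency factors, was called in Arf-C (0.67, adjusted p = 0.027), a call lost when any of 5 single libraries was left out (0.64 to 0.67, adjusted p from 0.0587 to 0.0677). Its Arf-B difference was 0.21 (adjusted p = 0.522).

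**Figure D4:**
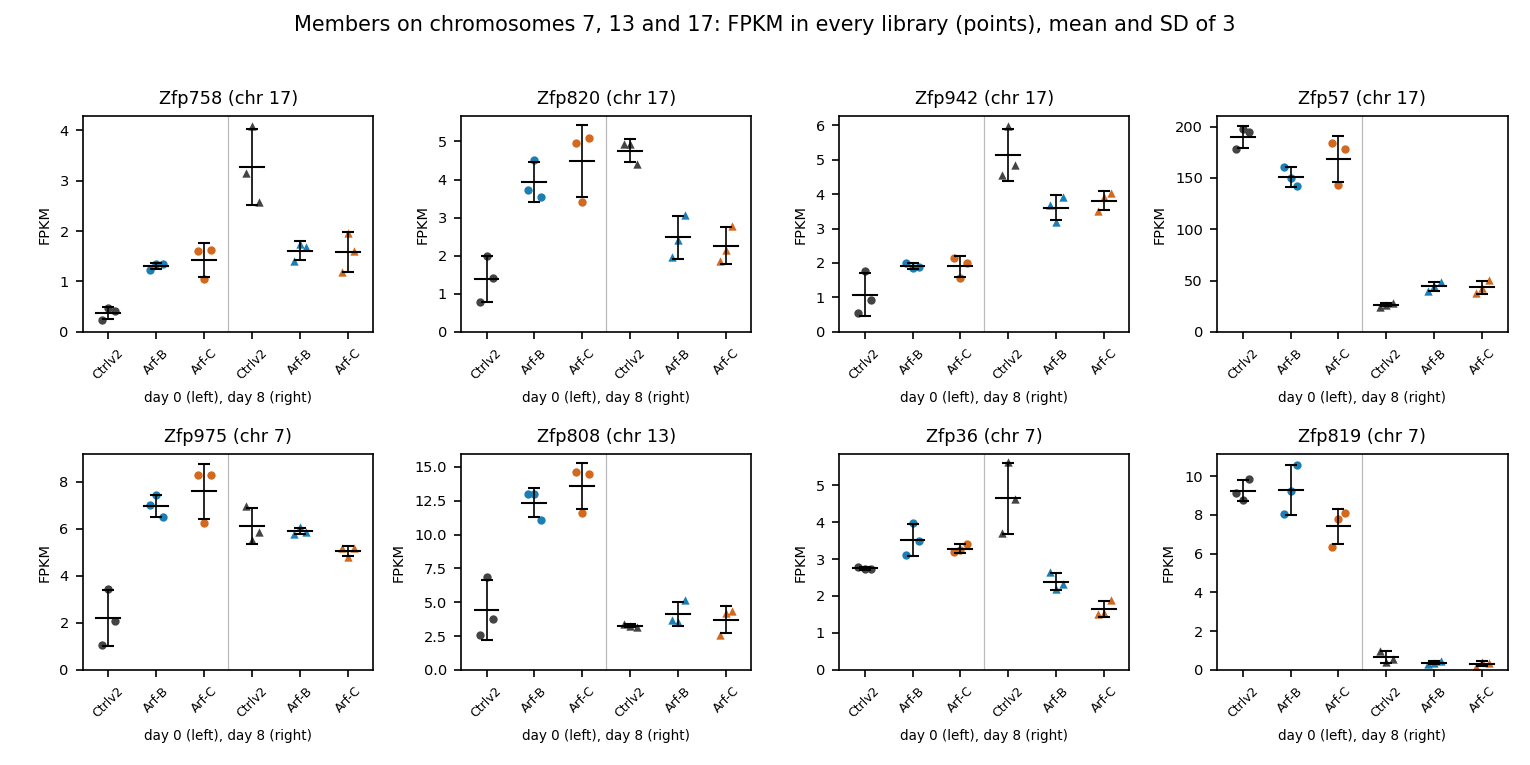
FPKM (vertical) of 8 members outside chromosome 4 in each library, by line (horizontal), with group mean and SD. Circles are day 0 and triangles day 8; Zfp975, Zfp808 and Zfp820 show day 0 Arf libraries above all controls, and Zfp57 and Zfp819 are far lower at day 8 than at day 0.

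Few members were lower in the Arf lines at day 0. None of these lay on chromosomes 4 or 13, but with the GC trend removed Zfp169 on chromosome 13 was lower in both lines (-0.25 and -0.28, adjusted p = 0.0178 and 0.00838, in place of -0.04 and -0.05, not called). Zfp953 on the same chromosome was then lower in Arf-B (-0.22, adjusted p = 0.044, in place of 0.11, not called). These genes were named after their values had been seen. Zfp628 on chromosome 7 measured 5.11, 4.37 and 4.08 FPKM in Ctrlv2, 2.69, 2.56 and 3.22 in Arf-B, with 3.19, 3.34 and 2.33 in Arf-C, with no overlap (-0.53 and -0.49, adjusted p = 0.000877 and 0.0015). Zfp553 was lower in Arf-B (-0.50, adjusted p = 0.00016) and by a difference of -0.26 in Arf-C (adjusted p = 0.0156), the latter not called with the GC trend removed (-0.17, adjusted p = 0.149), nor without Ctrlv2 or Arf-C day 0 replicate 2 (-0.19 and -0.22). Zfp277 on chromosome 12, whose protein is known to bind the Ink4a/Arf locus with Polycomb proteins, had 4.96, 5.24 and 6.16 FPKM in Ctrlv2, 3.67, 4.56 and 4.26 in Arf-B, with 4.15, 4.26 and 4.38 in Arf-C. Its differences were -0.32 (adjusted p = 0.00373) and -0.29 (adjusted p = 0.00651), or -0.56 and -0.54 with the GC trend removed. The Arf-B call was lost when only the compared groups were fitted. Zfp428 was lower in Arf-C (-0.44, adjusted p = 0.00904; without Arf-C day 0 replicate 3, -0.35 with adjusted p = 0.052) and measured -0.19 in Arf-B (adjusted p = 0.253). Zfp568, the most abundant member of chromosome 7 (44.6, 41.0 and 37.6 FPKM in Ctrlv2), was slightly higher in Arf-B (0.24, adjusted p = 0.0303) and measured 0.21 in Arf-C (adjusted p = 0.052; with the GC trend removed 0.23, adjusted p = 0.0341). The Arf-B call was lost without Ctrlv2 replicate 2 or 3 or Arf-B replicate 1 or 2 (0.18 to 0.26).

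During 8 days of differentiation, Ctrlv2 cells raised more numbered zinc finger genes than they lowered, with chromosome 17 at the top and the chromosome 4 cluster against the trend. In all, 86 of 184 rose (46.7%) and 36 fell (19.6%), where 33.9% of all genes tested rose and 34.4% fell (members' median 0.25). On chromosome 17, 26 of 41 rose and 6 fell (median 0.47); on chromosome 7, 37 of 84 and 17 (0.15); on chromosome 13, 10 of 26 and 5 (0.23); on chromosome 12, 3 of 4 and 1 (0.30); and on chromosome 4, 10 of 29 and 7 (-0.05). Other protein-coding genes of these chromosomes had medians of -0.04 to 0.09. Scaling every library to the same FPKM sum moved the members to 98 higher and 23 lower, 81.0% of calls higher in place of 70.5%. Of 156 Zfp genes on other chromosomes, 93 rose and 25 fell (0.39).

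Chromosome 4 held 2 opposite patterns. Outside its cluster 9 of 11 genes rose and 0 fell, while in the cluster 1 of 18 rose (Zfp933, 0.55, adjusted p = 0.000746) and 7 fell (median -0.35). The direction of the chromosome 4 median depended on the control libraries: it ranged from -0.29 to 0.19 as single libraries were left out. The proximal chromosome 17 cluster had 19 of 23 higher and 1 lower (0.70), and the distal one 5 of 11 higher and 3 lower (-0.14). Chromosome 13 had 7 of 26 higher and 8 lower (0.09) with the GC trend removed, and chromosome 4 a median of -0.19.

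**Figure D5:**
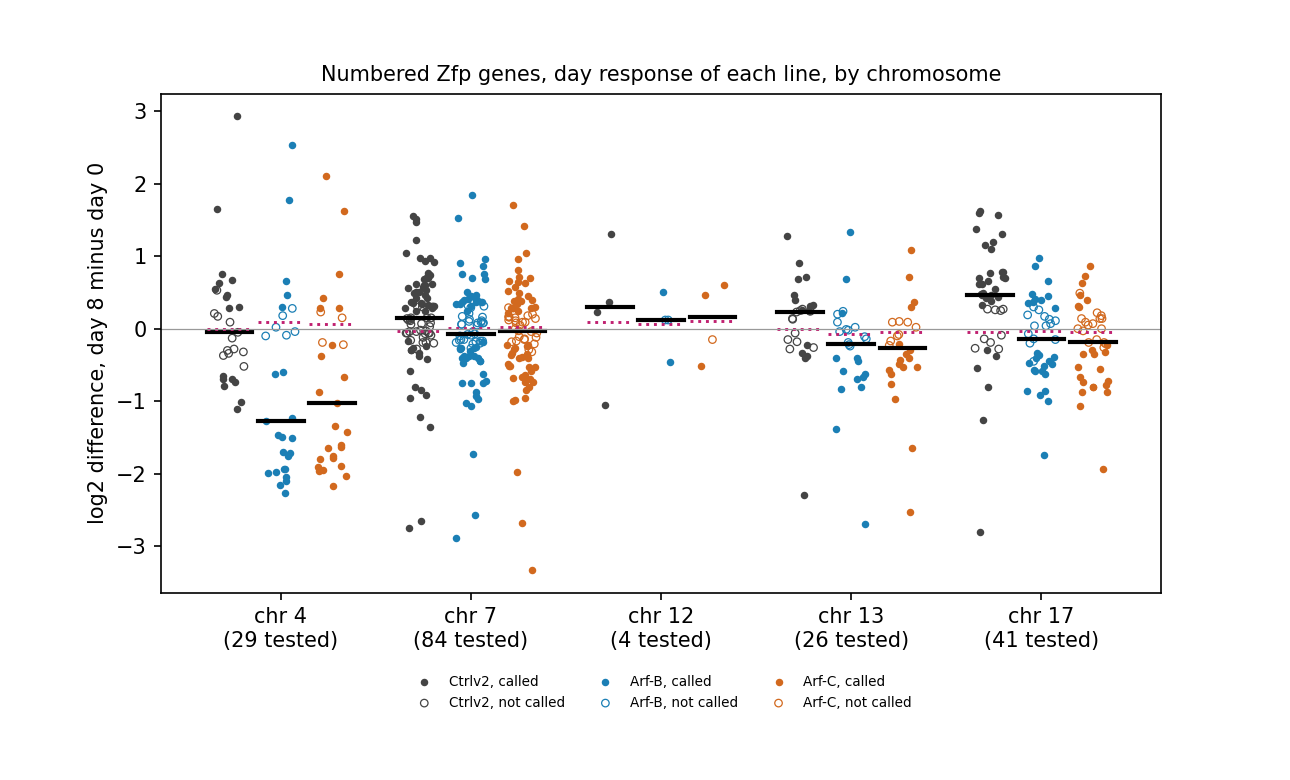
Day 8 minus day 0 difference (log2 scale, vertical) of every tested member by chromosome (horizontal) in Ctrlv2, Arf-B and Arf-C. Filled points passed the test, black bars are medians of members and dotted magenta bars those of other protein-coding genes of the chromosome; on chromosome 4 the median is -0.05 in Ctrlv2, -1.28 in Arf-B, with -1.02 in Arf-C.

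Zfp362 (chr4:128773088-128806045), outside the cluster, rose most. Its Ctrlv2 libraries measured 1.51, 1.45 and 1.59 FPKM at day 0 and 18.4, 16.6 and 19.7 at day 8 (2.93 ± 0.0769, adjusted p = 2.26e-14, 12-fold). Day 0 was higher in the Arf lines, at 2.22, 2.37 and 1.81 in Arf-B, with 3.09, 3.18 and 3.3 in Arf-C (0.31 and 0.73, adjusted p = 0.00449 and 1.8e-06), and day 8 reached 15.7 to 18 in both. All 3 lines thus arrived at similar levels from different starts. Zfp618 on the same chromosome rose by 1.65 ± 0.095 (adjusted p = 2.39e-10) in Ctrlv2.

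In Ctrlv2, Zfp758 rose from 0.23, 0.466 and 0.417 FPKM to 3.16, 4.08 and 2.58 (1.63 ± 0.138, adjusted p = 2.77e-08) and Zfp942 by 1.59 (adjusted p = 1.48e-07). The other 3 genes with the joined E box and ETS core also rose, Zfp943 by 1.1 (adjusted p = 3.27e-06), Zfp944 by 1.19 (adjusted p = 1.52e-06) and Zfp946 by 1.57 (adjusted p = 3.39e-10), in a cluster where 19 of 23 genes rose. No relation between the word and the rise was tested. On chromosome 7, Zfp260 rose by 1.55 ± 0.12 (adjusted p = 8.97e-09) and Zfp629 by 1.52 ± 0.0818 (adjusted p = 1.03e-10). Rises elsewhere included Zfp386 on chromosome 12 (1.3, adjusted p = 1.09e-07), and Zfp85 (1.28 ± 0.223, adjusted p = 9.18e-05) and Zfp455 (0.91, adjusted p = 2.09e-05) on chromosome 13. Zfp410, whose protein is known to activate Chd4, rose by 0.37 (adjusted p = 0.00013).

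The 4 largest falls were those of Zfp57, Zfp296, Zfp819 and Zfp459. Zfp57 (chr17:37001163-37010635), which guards imprinted methylation, had 178, 198 and 195 FPKM in Ctrlv2 at day 0 and 24.7, 26.4 and 27.8 at day 8 (-2.81 ± 0.109, adjusted p = 1.99e-12). It was the most abundant member of chromosome 17, and its day 8 mean was 0.138 of that at day 0. Zfp296 fell from 21.9, 21.3 and 21.9 to 1.62, 3.74 and 2.09 FPKM (-2.75 ± 0.226, adjusted p = 2.97e-08). Zfp819, a KRAB gene of pluripotent cells, went from 9.14, 8.79 and 9.83 to 0.999, 0.382 and 0.577 (-2.65 ± 0.129, adjusted p = 3.25e-11), and Zfp459 from 4.8, 9.88 and 6.57 to 0.601, 0.513 and 0.667 (-2.30 ± 0.169, adjusted p = 5.05e-09). In each of these 4 genes all day 8 values lay under all day 0 values, as the summed naive markers did; the part of cell composition was not tested. Smaller falls were those of Zfp870 (-1.26, adjusted p = 6.44e-10), Zfp277 (-1.05, adjusted p = 4.99e-09), Zfp367 (-0.38, adjusted p = 0.00266) and Zfp346, a protein of double-stranded RNA (-0.22, adjusted p = 0.00447). In the chromosome 4 cluster Zfp987 fell by 1.11 (adjusted p = 0.000272), Zfp985 by 1.01 (adjusted p = 0.00373) and Zfp992 by 0.65 (adjusted p = 0.00112).

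In the Arf lines the balance was the reverse of that in Ctrlv2. In Arf-B 43 members rose (23.4%) and 76 fell (41.3%), with 32.9% and 33.8% of all genes tested, and in Arf-C 45 rose (24.5%) and 82 fell (44.6%), with 32.8% and 33.8%. Medians were -0.14 and -0.19. This balance depended on scaling: with the same FPKM sum in every library, which moved the median of all genes by 0.13 and 0.11, the counts became 61 higher and 51 lower in Arf-B (54.5% of calls higher in place of 36.1%) and 60 and 61 in Arf-C (49.6% in place of 35.4%). With the GC trend removed Arf-C had 59 higher and 70 lower (45.7%). The chromosome 4 median stayed below 0 under each of these settings: it was -1.28 in Arf-B, with 5 higher and 18 lower, and -1.02 in Arf-C, with 6 and 19. In its cluster 17 of 18 fell in Arf-B (median -1.73) and 16 in Arf-C (-1.71), and with the GC trend removed 17 and 16 (-1.52 and -1.47). On chromosome 17, 10 rose and 17 fell in Arf-B, 7 and 17 in Arf-C; on chromosome 7, 24 and 29, and 26 and 31; on chromosome 13, 3 and 11, and 4 and 14.

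The difference in day response was itself tested. The response of Arf-B lay below that of Ctrlv2 for 72 members (39.1%) and above it for 12 (6.52%), against 16.1% and 17.5% of all genes tested; for Arf-C the counts were 76 (41.3%) and 10 (5.43%), against 18.9% and 19.4%. On chromosome 4, 16 and 17 of 29 were below and 0 above, on chromosome 17, 21 and 23 of 41 were below and 4 and 3 above, and on chromosome 7, 24 and 26 of 84 were below and 7 and 6 above. Zfp981 differed by -1.88 and -1.68 (adjusted p = 0.00208 and 0.00381), Zfp990 by -1.79 ± 0.369 and -1.72 (adjusted p = 0.00178 and 0.00202), and Zfp820 by -1.80 and -2.04 (adjusted p = 5.95e-05 and 1.64e-05). The Ctrlv2 day 0 libraries enter these differences as they do the day 0 comparison, so the 2 are not separate evidence. With the GC trend removed 59 and 67 members were below and 10 and 9 above.

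At day 8 few members separated the lines, and in the main fit fewer than among genes at large. In Arf-B 17 were higher (9.24%) and 21 lower (11.4%), with 16.3% and 16.9% of all genes tested. In Arf-C 16 were higher (8.7%) and 18 lower (9.78%), with 16.8% in each direction. With the GC trend removed more members were called in each direction and line, most of all lower in Arf-B. The split is sensitive to scaling: with the same FPKM sum in every library, 25 were higher and 12 lower in Arf-B (67.6% of calls higher in place of 44.7%), and 21 and 13 in Arf-C (61.8% in place of 47.1%). In the chromosome 4 cluster limma and voom each called 0 of 18 in either line, with 1 and 2 at an unadjusted p below 0.05 (medians -0.17 and -0.20). In each line 2 of the 18 were lower with the GC trend removed. In the large chromosome 17 cluster Arf-B had 3 higher and 6 lower, and Arf-C 1 and 7, or 3 and 11, and 1 and 9, with the GC trend removed. There Zfp820 was lower, with differences of -0.73 (adjusted p = 0.0046) and -0.83 (adjusted p = 0.00196), as was Zfp758, with -0.70 (adjusted p = 0.0011) and -0.72 (adjusted p = 0.000821), both having been higher at day 0. Zfp947 of this cluster was lower in Arf-B (-0.53, adjusted p = 0.0181), a call lost without Ctrlv2 replicate 2 or 3 or Arf-B replicate 2 of day 8 (-0.46 to -0.50), and measured -0.43 in Arf-C (adjusted p = 0.0501; with the GC trend removed -0.40, adjusted p = 0.0128).

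The most marked day 8 difference towards higher was that of Zfp57, with 40.0, 44.7 and 48.6 FPKM in Arf-B, with 37.5, 43.0 and 50.1 in Arf-C, above the 24.7 to 27.8 of Ctrlv2 (0.73 and 0.70, adjusted p = 8.73e-05 and 0.000137). Naive markers were also higher there, as given above, and their part was not tested. At day 0 Zfp57 was lower in Arf-B (-0.33, adjusted p = 0.0225; not called without any of 4 single libraries, -0.33 to -0.29) and measured -0.18 in Arf-C (adjusted p = 0.192). Zfp941 on chromosome 7 had 2.26, 2.28 and 2.51 FPKM in Ctrlv2, 4.57, 4.54 and 4.11 in Arf-B, with 3.85, 4.24 and 4.46 in Arf-C (0.69 ± 0.0702 and 0.63, adjusted p = 2.17e-06 and 5.44e-06). Zfp61 was higher by 0.47 and 0.44 (adjusted p = 0.00159 and 0.0025), and Zfp526 in Arf-C by 0.45 (adjusted p = 0.00345), with 0.24 in Arf-B (adjusted p = 0.0913).

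Zfp36 encodes tristetraprolin, which binds AU-rich mRNAs through CCCH fingers and is no KRAB protein. It measured 3.7, 5.62 and 4.62 FPKM in Ctrlv2 at day 8, 2.64, 2.2 and 2.33 in Arf-B, with 1.5, 1.55 and 1.89 in Arf-C. It was lower in both lines without overlap (-0.72 ± 0.106 and -1.08, adjusted p = 7.55e-05 and 1.43e-06). Zfp410 was lower as well (-0.26 and -0.30, adjusted p = 0.00752 and 0.00252).

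Arf-B and Arf-C hardly differed from each other. In limma's test 1 member was called at day 0 and 0 at day 8 (voom, 2 and 0), with 13 and 6 at an unadjusted p below 0.05, where 0.343% and 0.0581% of all genes were called. The 1 gene was Zfp362, lower in Arf-B (-0.42, adjusted p = 0.0222), and the call was lost when any of 5 libraries was left out (-0.44 to -0.35, adjusted p from 0.0514 to 0.128).

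The co-repressor side of the pathway was followed in 24 genes for TRIM28, SETDB1, HP1, NuRD, HUSH and DNA methylation. Of these, 8 rose (33.3%) and 11 fell (45.8%) in Ctrlv2 over 8 days (median -0.09), beside 33.9% and 34.4% of all genes tested. At day 0, 14 were higher (58.3%) and 3 lower (12.5%) in Arf-B (0.20), beside 19.1% and 20.0%, and 10 (41.7%) and 4 (16.7%) in Arf-C (0.14), beside 21.2% and 21.5%. These counts were 13 and 2, and 10 and 4, with the GC trend removed. At day 8, 6 were higher (25%) and 3 lower (12.5%) in Arf-B, beside 16.3% and 16.9%, and 5 (20.8%) and 2 (8.33%) in Arf-C, beside 16.8% in each direction; Arf-C then had 8 higher and 3 lower with the GC trend removed. The share that rose in Ctrlv2 was near the background. Trim28 fell in Ctrlv2 from 500, 441 and 503 FPKM to 186, 190 and 196 (-1.33, adjusted p = 1.13e-10). At day 0 its Arf differences were 0.00 and -0.06 (adjusted p = 0.999 and 0.586), and at day 8 it was higher in Arf-B by 0.35 and in Arf-C by 0.39 (adjusted p = 0.00138 and 0.000607). Trim28 itself was thus not called at day 0, while 14 and 10 of the 24 listed genes were higher. No relation between these genes and the clusters was tested. Setdb1, the histone methyltransferase it recruits, stayed at 19.0 ± 0.922 (SD, n = 3) and 18.1 ± 0.897 (SD, n = 3) FPKM in Ctrlv2 (-0.07, adjusted p = 0.337). Dnmt3a, a de novo DNA methyltransferase, rose from 1.94, 1.81 and 1.87 to 9.28, 7.27 and 8.05 FPKM (1.67, adjusted p = 4.06e-11) and was already higher at day 0 in the Arf lines (1.04 and 0.81, adjusted p = 1.1e-07 and 1.43e-06). Uhrf1, which guides maintenance methylation, fell by 1.16 (adjusted p = 3.27e-09), and Hdac2, a histone deacetylase of NuRD, by 1.14 (adjusted p = 2.69e-10).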

How the data were processed

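RNA was measured in 18 libraries. The authors deposited FPKM values for 54532 genes; per the submitters' processing notes, HISAT2, featureCounts and DESeq2 were used on mm10, with no versions. Gene positions equal those of GENCODE vM21 for 98.3% of genes and 97.4% of members.

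Log2(FPKM + 1) values were fitted with limma 3.58.1 (R 4.3.3, statmod 1.5.0), 1 coefficient per group over all 18 libraries, with a trended, robust variance prior. Genes with at least 0.5 FPKM in 3 libraries were tested, with Benjamini-Hochberg adjustment over all 17200 and a threshold of 0.05. Each FPKM step gave whole reads (tolerance 0.001) for all 413772 values above 0, used for voom and thinning. The GC trend was a loess fit (span 0.5) per library on the longest GENCODE transcript. Scripts were tested on simulated data.

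The members, gene lists and rules were chosen with earlier results of these data known. Named genes were called members of at least 1 FPKM with separated libraries and the largest changes per chromosome or per day, the largest differences in day response, the most abundant member per chromosome, and 9 genes picked by name. Lists of co-repressors and of pluripotency, endoderm, foregut, 2-cell-like, mesenchyme and neural markers were counted. Protein sequences were not used here.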

Additional observations from a re-analysis of the deposited data

Results flagged for a closer look

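A test of the difference itself found another day response in both Arf lines than in Ctrlv2 for 25 named genes; values are log2 differences of Arf-B and then of Arf-C from Ctrlv2. All of them use the Ctrlv2 day 0 libraries that differed in GC dependence. On chromosome 4 the Arf response was lower for Zfp362 (-0.38 and -0.82), Zfp987 (-0.94 and -0.91), Zfp980 (-1.80 and -1.60), Zfp988 (-1.75 and -1.65), Zfp990 (-1.79 and -1.72), Zfp981 (-1.88 and -1.68), Zfp600 (-1.62 and -1.58) and Zfp992 (-1.06 and -1.0). On chromosome 7 the Arf response was lower for Zfp260 (-1.10 and -1.03), Zfp975 (-1.43 and -1.72) and Zfp36 (-0.99 and -1.28), and higher for Zfp628 (0.44 and 0.52), Zfp553 (0.39 and 0.31), Zfp941 (0.56 and 0.46) and Zfp61 (0.53 and 0.40). On chromosome 12 the Arf response was lower for Zfp386 (-0.80 and -0.70) and Zfp410 (-0.26 and -0.52), and higher for Zfp277 (0.59 and 0.53). On chromosome 13 the Arf response was lower for Zfp808 (-1.13 and -1.38). On chromosome 17 the Arf response was lower for Zfp758 (-1.45 and -1.54), Zfp942 (-0.93 and -0.86), Zfp820 (-1.80 and -2.04) and Zfp947 (-1.17 and -0.97), and higher for Zfp57 (1.07 and 0.88) and Zfp870 (0.40 and 0.45). The difference was no longer called with the GC trend removed in either Arf line for Zfp987 (-0.59 and -0.52, adjusted p = 0.0547 and 0.081), Zfp628 (0.27 and 0.32, adjusted p = 0.119 and 0.0641) and Zfp553 (0.25 and 0.17, adjusted p = 0.145 and 0.316), in Arf-B for Zfp410 (-0.19, adjusted p = 0.147) and in Arf-C for Zfp61 (0.32, adjusted p = 0.0608).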

How the results depend on the processing

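Alternatives were a pseudocount of 0.1, no filter or a mean of at least 1 FPKM, median-ratio factors, the same FPKM sum in every library, only the compared groups, a replicate block, reads thinned to 10432590 and each library left out. The median-ratio factors were 0.9963 to 1.005, so that alternative could change little. Voom on recovered reads and removal of the GC trend were added after seeing the data. Replicate numbers did not pair libraries (r -0.251 to 0.203), and the replicate block moved 1 count, Arf-B against Arf-C at day 0, from 1 to 0, as did the compared groups alone and thinning; voom gave 2, and leaving out libraries 0 to 1. Other totals of called members, both directions together, stayed within 1.5 times of those reported. By direction some moved further. The 11 lower in Arf-C at day 0 became 5 with no filter, 4 at the same FPKM sum, 3 with only the compared groups and 7 thinned, and the 5 lower in Arf-B became 3 with only the compared groups, 9 with voom and 8 without the GC trend. The 36 falls in Ctrlv2 became 23 and the 21 lower in Arf-B at day 8 became 12 at the same FPKM sum. The 16 higher in Arf-C at day 8 became 10 with only the compared groups and with voom. With only the compared groups, calls were also lost for Zfp428 and Zfp459 in Arf-C and for Zfp459 in Arf-B at day 0, and for the fall of Zfp346, which was not called at the same FPKM sum either.

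Median changes moved as follows. In the Ctrlv2 day response, chromosome 7 was 0.20 at the lower pseudocount, 0.25 at the same FPKM sum, 0.18 thinned, 0.26 with voom, 0.12 without the GC trend and 0.11 to 0.19 with a library left out. Chromosome 12 was 0.35, 0.42, 0.36 (voom) and 0.33 (GC), and chromosome 17 was 0.73 (pseudocount) and 0.77 (voom). At day 0 in Arf-B, chromosome 7 was 0.14 (pseudocount), 0.16 (voom), 0.11 (GC) and 0.06 to 0.12 (a library left out), chromosome 13 was 0.50, 0.59 and 0.08, and chromosome 17 was 0.25 (GC). In Arf-C, chromosome 7 was 0.18 with the pseudocount and with voom, chromosome 13 was 0.57, 0.64, 0.12 (GC) and 0.20 to 0.52 (a library left out), and chromosome 17 was 0.70 (voom) and 0.24 (GC). The chromosome 4 day response was -1.61 (pseudocount), -1.48 (mean of at least 1 FPKM) and -1.62 (voom) in Arf-B, and -1.43, -1.39, -1.44 and -0.76 (GC) in Arf-C. Where no value shows it, the cause was not tested.

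Changes of sign were seen in uncalled values of named genes. For Ctrlv2 day responses, Zfp990 was -0.04 (GC) and -0.29 to 0.46 with a library left out (Ctrlv2 day 0 replicates 1 and 2), Zfp568 -0.00 (without replicate 3), Zfp600 -0.68 to 0.04 and Zfp808 -0.52 to 0.05 (without replicates 1 and 2). Zfp568 in Arf-C at day 8 was -0.01 without Ctrlv2 day 8 replicate 2. At day 0 in Arf-B, Zfp839 was 0.02 (same FPKM sum), 0.09 (GC), and -0.05 to 0.05 (a library left out; 0.04 without Arf-B replicate 1), and Zfp819 was 0.00 (median-ratio), 0.03 (same FPKM sum), 0.04 (thinned), 0.02 (GC) and -0.09 to 0.09 (a library left out, 0.00 and 0.04 between). Depth limits the low genes most: the Ctrlv2 day 8 libraries are the shallowest.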
